A study of Mus musculus with 6 samples.

Results

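The tyrosine and propionate breakdown genes described here are 9 of the 23366 genes counted in the small intestine epithelium of mouse embryos. They were listed by symbol: *Hpd*, *Hgd*, *Gstz1* and *Fah* for tyrosine, and *Pcca*, *Pccb*, *Mcee*, *Mut* and *Mmaa* for propionate. The list was chosen from earlier results of the comparison of mutant with wild type libraries, in which *Fah* and *Pccb* stood out. The differences of the members between the groups are therefore given as a description. The members were in the fit across all genes, but no p-value is given for any of them, and calls on them are counts from which nothing is read. Genes of the neighbouring steps were tested. They were listed by pathway and not by how they moved, but with earlier results of these data known.

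Both groups are epithelium of untreated embryos at embryonic day 13.5 (E13.5), with 3 libraries each. The mutant group has the genotype *Shh-cre-egfp:Tcf7l1 lox/lox*, and the other group is wild type. In the mutants, Cre made from the *Shh* locus removes a floxed exon of *Tcf7l1*, which encodes a repressor of WNT target genes, wherever *Shh* is active in the gut epithelium. A library holds the polyA RNA of 500 living cells sorted for EpCAM, a surface protein of epithelial cells. The groups differ in the Cre-carrying *Shh* allele and in the floxed *Tcf7l1* together, and no library with Cre and intact *Tcf7l1* was analysed here, so that the effects of both alleles cannot be told apart.

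The total count of the 6 libraries ranged from 18216537 to 20397278 reads. Values below are counts normalized by edgeR's TMM method to the mean library size. *Tcf7l1* had 437 ± 64.0 normalized counts (mean ± SD, n = 3) in wild type against 49.1 ± 21.1 in mutant libraries, in the direction of the labels. *Shh*, whose locus carries Cre in the mutants, had 480.5 ± 65.7 in wild type against 197 ± 22.6 in mutants. All 8 epithelial markers were detected. Their summed levels were 7993 to 8512 CPM (counts scaled to a common library total) in wild type against 7754 to 7953 CPM in mutants. Of the 8, 3 (*Cdh1*, *Krt18*, *Cdx2*) were called lower and 0 higher, beside 8.62% of all tested genes called in either direction. Of those not called, *Epcam* and *Cldn7* were higher in every mutant library (log2 fold changes of 0.25 and 0.24). *Krt8* and *Krt19* were lower in every mutant library (-0.32 and -0.49), and *Vil1* overlapped. The groups also differed in sex-linked transcripts in every library. No read of *Xist* was counted in wild type, and no read of the Y-linked *Kdm5d*, *Uty*, *Eif2s3y* or *Ddx3y* in mutants. Genotype and sex can thus not be told apart in any result below.

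Tyrosine is broken down in a chain of enzymes best known from liver and kidney. After its amino group is removed, HPD turns 4-hydroxyphenylpyruvate into homogentisate, HGD opens the ring of homogentisate, GSTZ1 isomerises the product to fumarylacetoacetate, and FAH cleaves this into fumarate and acetoacetate. Propionyl-CoA comes from isoleucine, valine, methionine, threonine and odd-chain fatty acids. It is carboxylated in mitochondria by propionyl-CoA carboxylase, an enzyme of alpha (PCCA) and beta (PCCB) subunits with biotin bound to the alpha subunit. MCEE then epimerises methylmalonyl-CoA, and MUT converts it to succinyl-CoA with adenosylcobalamin, a form of vitamin B12. MMAA is a GTPase that assists MUT with this cofactor.

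RefSeq promoter windows of build GRCm38.p6, from 250 bases before to 50 bases after a transcript's start, were found for 8 of the 9 genes, 11 windows in all. *Mut* had no entry. The windows of *Fah* and *Pccb*, the members with the widest separation between groups, are shown beside that of *Hgd*, which had almost no reads. Capitals mark CG pairs, and the sequences run 5′ to 3′ on the strand of the gene.

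Fah, minus strand, chr7:84605893-84606192: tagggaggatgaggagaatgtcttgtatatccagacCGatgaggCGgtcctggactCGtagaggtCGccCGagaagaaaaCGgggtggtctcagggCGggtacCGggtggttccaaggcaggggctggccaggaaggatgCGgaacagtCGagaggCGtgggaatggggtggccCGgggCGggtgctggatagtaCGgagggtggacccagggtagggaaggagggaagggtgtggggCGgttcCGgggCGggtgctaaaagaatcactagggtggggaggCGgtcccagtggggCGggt
Pccb, minus strand, chr9:101034835-101035134: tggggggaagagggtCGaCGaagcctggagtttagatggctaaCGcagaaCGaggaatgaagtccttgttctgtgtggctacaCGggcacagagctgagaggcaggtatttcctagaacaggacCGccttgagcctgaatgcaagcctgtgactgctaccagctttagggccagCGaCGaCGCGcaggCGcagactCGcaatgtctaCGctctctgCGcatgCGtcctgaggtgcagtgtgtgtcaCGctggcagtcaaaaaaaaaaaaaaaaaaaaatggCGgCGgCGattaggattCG
Hgd, plus strand, chr16:37579903-37580202: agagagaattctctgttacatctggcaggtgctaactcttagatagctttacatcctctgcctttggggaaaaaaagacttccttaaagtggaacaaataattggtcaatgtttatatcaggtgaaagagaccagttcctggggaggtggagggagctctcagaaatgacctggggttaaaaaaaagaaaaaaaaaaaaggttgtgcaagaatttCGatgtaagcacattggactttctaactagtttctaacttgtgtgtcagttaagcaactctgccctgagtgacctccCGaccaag

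The *Fah* window held 19 CG pairs, the *Pccb* window 20 and the *Hgd* window 2, and the median over all 32851 windows in the table was 7. Their GC contents were 64.3%, 54.3% and 41%, around a median of 52.7%. Members that differed little also had windows rich in CG pairs, with 25 for *Mcee* and 32 and 40 for *Mmaa*. The windows of *Pcca* held 9 and 21, those of *Gstz1* 15 and 3, and that of *Hpd* 7. The recognition letters of TCF/LEF factors were searched on both strands, as CTTTGAA or its variant CTTTGAT, and as CTTTGTA or its variant CTTTGTT. They occurred in 16.9% of all windows and in 0 of the 11 member windows, which says only that these letters are not in these 300-base windows.

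Of the tyrosine genes that were tested, *Fah* and *Gstz1*, *Fah* had the larger log2 fold change. *Fah* (ENSMUSG00000030630) is read from the minus strand between 91733669 and 91755232 of chromosome 7 (mm9, the build of all gene positions given here), and its longest transcript has 14 exons and 1470 bases. It had 89.9, 64.2 and 128 normalized counts in wild type 1, 2 and 3. In mutant 1, 2 and 3 it had 305, 374 and 339. Every mutant library lay above every wild type library, and the lowest mutant value was 2.38-fold the highest wild type value. The means were 94.1 ± 32.1 in wild type against 339 ± 34.6 in mutant libraries, a log2 fold change of 1.85 (SE 0.24) or 3.61-fold. Whether more cells held *Fah* transcripts or each cell held more of them cannot be told apart in RNA pooled from sorted cells.

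*Gstz1* (ENSMUSG00000021033, chromosome 12, 88488668 to 88505673, plus strand), which acts just before *Fah*, had by far more reads and a small difference. Its normalized counts were 1706, 1607 and 1721 in wild type against 1997, 2032 and 1957 in mutants. The groups did not overlap, but the log2 fold change was 0.25 (SE 0.08), below the size of 0.5 set for a call. Exons of *Pomt2* on the opposite strand cover 7.67% of the *Gstz1* exon bases, and whether the reads were counted by strand is not given in the sources used here.

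*Hpd* and *Hgd*, the genes of the steps before *Gstz1*, were at the edge of detection and were not tested. *Hpd* (ENSMUSG00000029445, chromosome 5, 123621816 to 123632734, minus strand) had 0, 8 and 1 reads in wild type against 7, 12 and 11 in mutants. Wild type 2 thus reached above mutant 1, and it held 8 of the 9 wild type reads. Summed over the libraries, the mutant to wild type ratio of *Hpd* was 3.79, from 30 mutant and 9 wild type reads, and is given as a description. *Hgd* (ENSMUSG00000022821, chromosome 16, 37580239 to 37632106, plus strand) had 0 reads in all wild type libraries, and 0, 6 and 0 in mutant 1, 2 and 3. For *Hgd* a count of 0 was taken to allow up to 3 reads, or 0.0499 CPM over the wild type libraries. The binomial 95% interval of the same count reached 0.0614 CPM. A transcript level in the mutants above these limits rests on mutant 2 alone. The chain was therefore measured with many reads at *Gstz1*, fewer at *Fah* (69 to 135 per wild type library), and few or none at *Hpd* and *Hgd*.

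**Figure D1:**
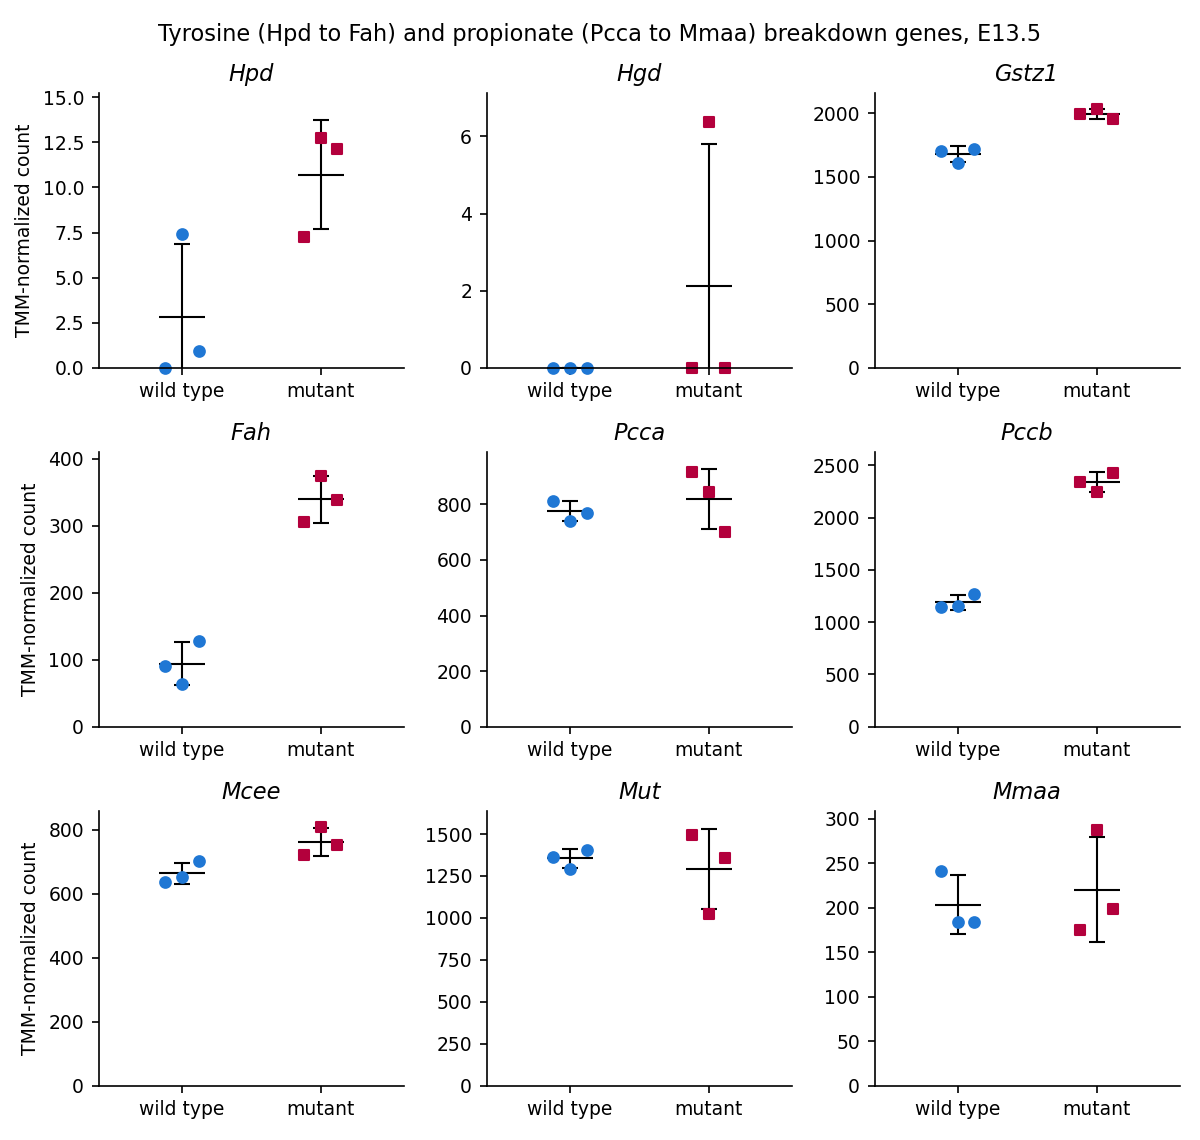
TMM-normalized counts of the 9 genes in each library, wild type as blue circles and mutant as red squares, with the mean as a black line and the SD as its bar (n = 3, bars are cut at 0, each panel has its own linear axis from 0). The groups stand clearly apart for *Fah* and *Pccb*, narrowly apart for *Gstz1* and *Mcee*, and overlap for the other genes.

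Of the propionate genes, *Pccb* differed and its partner subunit *Pcca* hardly did. *Pccb* (ENSMUSG00000032527) is read from the minus strand between 100882451 and 100935317 of chromosome 9, with 15 exons and 2320 bases in its longest transcript. Its normalized counts were 1140.4, 1158 and 1266 in wild type against 2342, 2246 and 2431 in mutants. All mutant libraries were higher, the lowest by 1.77-fold over the highest wild type library. The means were 1188 ± 68.0 and 2339 ± 92.7, a log2 fold change of 0.98 (SE 0.09).

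*Pcca* (ENSMUSG00000041650, chromosome 14, 122933546 to 123290322, plus strand) had 814, 742 and 771 normalized counts in wild type against 915, 843 and 701 in mutants. Mutant 1 and 2 were above and mutant 3 below all wild type libraries. The log2 fold change was 0.08 (SE 0.12), and its direction changed without mutant 1 and when only library size was used to scale. Exons of *A2ld1* on the opposite strand cover 4.63% of its exon bases.

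The balance of both subunit transcripts can be read per length, as CPM per kilobase of the longest transcript (RPKM). *Pccb* had 1.57, 1.74 and 1.84 times the RPKM of *Pcca* in wild type 1, 2 and 3. In mutant 1, 2 and 3 it had 2.86, 2.98 and 3.87 times. The ratio was 1.72 ± 0.14 in wild type against 3.24 ± 0.55 in mutant libraries, without overlap. The size of the ratio depended on the length used. With the union of exons it was 2.89 ± 0.23 in wild type against 5.45 ± 0.93 in mutant libraries, also without overlap. The highest ratio, in mutant 3, coincided with the lowest *Pcca* level of any library. For the last tyrosine steps, *Fah* had 0.0627 ± 0.0196 of the RPKM of *Gstz1* in wild type against 0.192 ± 0.0180 in mutant libraries.

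**Figure D2:**
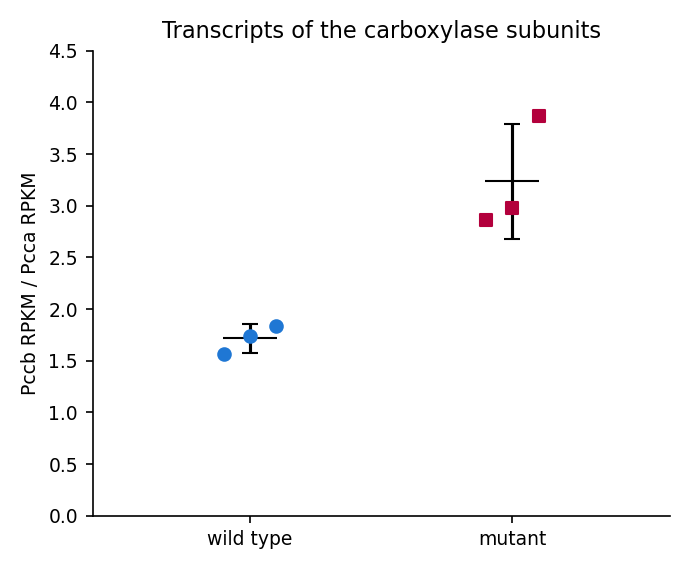
Ratio of *Pccb* to *Pcca* RPKM in each library (points), with the group mean (line) and SD (bar, n = 3), on a linear axis from 0, with the longest transcript as length. All 3 mutant libraries, at 2.86 to 3.87, lie above the wild type libraries at 1.57 to 1.84.

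The genes that act after the carboxylase stayed close to their wild type values. *Mcee* (ENSMUSG00000033429, chromosome 7, 71537531 to 71557007, plus strand) had 639, 653 and 702 normalized counts in wild type against 722, 808 and 753 in mutants. These groups did not overlap, although only narrowly, and the log2 fold change was 0.20 (SE 0.11). *Mut* (ENSMUSG00000023921, chromosome 17, 41071656 to 41098582, plus strand) had 1365, 1293 and 1406 in wild type against 1493, 1026 and 1355 in mutants. Mutant 2 was the lowest and mutant 1 the highest of all, so that the groups overlapped. The log2 fold change of *Mut* was -0.07 (SE 0.12), and its direction changed with a correction for gene length and without mutant 2. Exons of *Cenpq* on the opposite strand cover 2.21% of its exon bases.

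*Mmaa* (ENSMUSG00000037022, chromosome 8, 81790323 to 81818855, minus strand) had 242, 184 and 184 normalized counts in wild type against 175, 287 and 199 in mutants. In both groups 1 library stood above the others, and the groups overlapped. The log2 fold change was 0.11 (SE 0.22), and it was -0.12 without mutant 2. A stretch of chromosome 13, from 64775104 to 64776392, resembles 1338 of the 2843 bases of the *Mmaa* transcript at 91.7% identity. Reads of *Mmaa* that also match there would be missing from the counts, which are of uniquely mapping reads. *Mut* had 3 such stretches of at most 85 bases, and the other members had none at 90% identity or above.

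A gene was called at an adjusted p under 0.01 in edgeR's quasi-likelihood test, provided that its log2 fold change was 0.5 or more in size and its mean was 50 normalized counts or more. Of the 9 members, 7 passed the filter on low counts. Of these, 2 were called, *Fah* and *Pccb*, both higher, beside 8.62% of all 12501 tested genes called in either direction and 2.78% called higher. In 4 of the 7 (*Fah*, *Gstz1*, *Pccb* and *Mcee*) every mutant library was above every wild type library, and the groups were separate in one direction or the other for 43.0% of all tested genes. The comparison helped to choose these genes, so nothing is read from these counts. The median log2 fold change of the 7 was 0.20, and that of all tested genes was -0.04.

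Over 12 alternative analyses of the same libraries, the log2 fold change lay between 1.64 and 2.15 for *Fah* and between 0.87 and 1.08 for *Pccb*. For *Fah* both ends of this range came from leaving out a wild type library, 1.64 without wild type 2, which had the lowest value, and 2.15 without wild type 3, which had the highest. These ranges describe how the values move with the processing and are no further evidence on genes that the same comparison helped to choose.

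**Figure D3:**
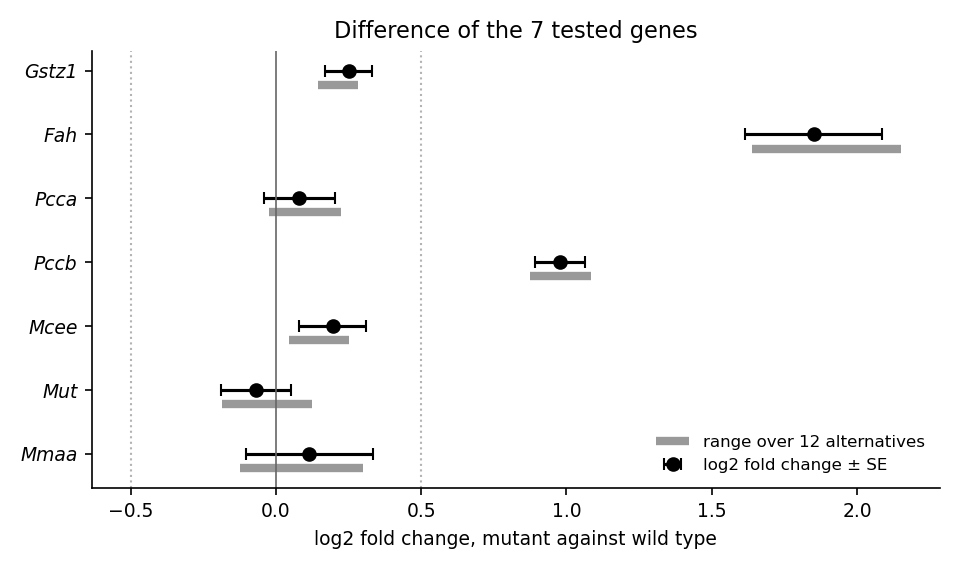
Log2 fold change of the 7 tested genes, mutant against wild type, with SE (black), and the range of the same value over the 12 alternative analyses (grey bars). Dotted lines mark 0.5 in either direction. *Fah* and *Pccb* lie beyond 0.5 throughout, and the other 5 stay within it.

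Levels of different genes were compared per length only. In wild type epithelium the order of the members by RPKM was *Gstz1* (52.0 ± 1.93), *Mcee* (41.4 ± 2.07), *Pccb* (26.3 ± 1.502), *Mut* (21.6 ± 0.91), *Pcca* (15.3 ± 0.71), *Mmaa* (3.67 ± 0.60), *Fah* (3.28 ± 1.12), *Hpd* (0.102 ± 0.148) and *Hgd* (0). The ranges of *Mmaa* and *Fah* overlapped, as did those of *Hpd* and *Hgd*. Each of the other neighbours in this order was separated in all 3 wild type libraries. *Gstz1* was thus above 83.3% of the 11871 tested genes with a known length, while *Fah* was above 34.4% of them.

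In the mutant libraries *Pccb* (51.7 ± 2.05) stood second by its mean, next to *Mcee* (47.4 ± 2.72) with overlapping ranges. *Fah*, at 11.8 ± 1.21, stood above *Mmaa* (3.97 ± 1.07) in every mutant library and above 58.9% of the tested genes. With the union of all exons as length, the wild type order was the same, and *Pccb* (21.99 ± 1.26) and *Mut* (21.1 ± 0.89) then overlapped. *Pcca* depended most on the length chosen, at 7.63 ± 0.36 with the union of exons.

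**Figure D4:**
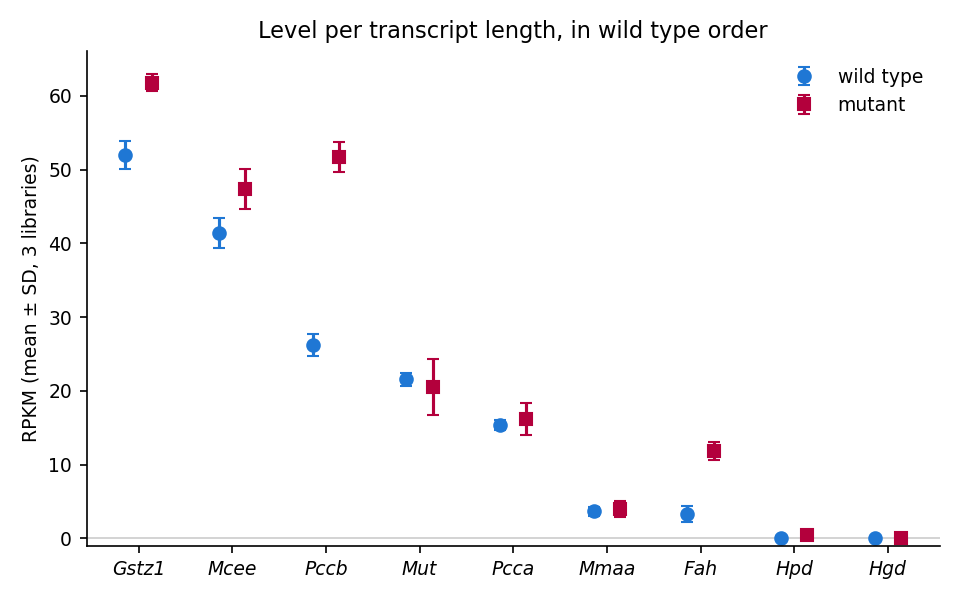
RPKM of the 9 genes, mean and SD of 3 libraries, wild type as blue circles and mutant as red squares, ordered by the wild type mean on a linear axis. *Gstz1*, *Mcee* and *Pccb* have the highest levels, and *Hpd* and *Hgd* lie near 0 in both groups.

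The tested genes with the pattern most like that of *Fah* were sought by the Euclidean distance of log2 CPM, centred on each gene's mean over the 6 libraries. They were *Naip5* (distance 0.56), a sensor of the inflammasome, *Glt28d2* (0.69) and *Pvr* (0.69), a cell surface receptor. *Naip5* belongs to a family of similar genes, between which reads may not be fully separated. For *Pccb* the nearest were *Gm5506* (0.14), *Pycard* (0.16), an inflammasome adaptor, and *Rab3b* (0.18), a small GTPase of vesicle transport. The distance between *Fah* and *Pccb* was 1.28, and *Pccb* ranked 88 among the genes nearest to *Fah*. In the other direction *Fah* ranked 5441 among those nearest to *Pccb*, behind *Gstz1* (1806), *Mcee* (2454) and *Pcca* (4361). These distances cover 6 libraries in 2 groups and are a description.

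The genes next to *Fah* and *Pccb* on their chromosomes, 5 tested genes on each side, were examined after the values were seen. Of the 10 beside *Fah*, between 91029005 and 95639976 on chromosome 7, edgeR and DESeq2 called 0, and 2 (*Mesdc1* and *Arnt2*) had an unadjusted p under 0.05. Of the 10 beside *Pccb*, 4 (*Dzip1l*, *Cldn18*, *Msl2* and *Amotl2*) had an unadjusted p under 0.05. Of the same 10, edgeR and DESeq2 each called 1, beside 8.62% of all tested genes called in edgeR. In edgeR this was *Cldn18*, a claudin of stomach and lung epithelium. It fell to 42.6 normalized counts in mutants, against 299 in wild type (-2.81 on the log2 scale, adjusted p = 1.8e-06), opposite to *Pccb*.

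The pathway around the members was covered by 93 genes in 6 lists, of which 84 were tested. Of these, 4 were called higher and 4 lower, 9.52% in all, close to the 8.62% of all tested genes. The median log2 fold change was 0.07. In edgeR an unadjusted p under 0.05 was found for 7 of 12 tested genes of the tyrosine and tetrahydrobiopterin list. It was also found for 4 of 12 of cobalamin handling, 2 of 8 of biotin and 11 of 22 of branched-chain breakdown. Use of the end products had 10 of 12, and breakdown of other amino acids 7 of 18. The share of all tested genes under this limit is not given here. The adjusted p values of these genes come from edgeR and are adjusted over all tested genes, and they measure the spread between these libraries, whose embryos are not given in the sources used here.

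Upstream of *Hpd*, the list of phenylalanine and tyrosine breakdown and of tetrahydrobiopterin, a cofactor of aromatic amino acid metabolism, had 1 of 12 tested genes called. *Got1*, a cytosolic aminotransferase that can take the amino group of tyrosine, rose to 1939 ± 146 normalized counts, against 1303 ± 232 in wild type (0.57 on the log2 scale, SE 0.12, adjusted p = 0.0021). Its values were 1058, 1333 and 1519 in wild type against 2108, 1848 and 1862 in mutants, without overlap. It was no longer called when wild type 1 (0.44, adjusted p = 0.013) or mutant 1 (0.51, adjusted p = 0.017) was left out, or with library size only (0.47, below the fold). *Got2*, its mitochondrial counterpart, was lower in every mutant library without being called (526 against 735 normalized counts in wild type, -0.48 on the log2 scale, adjusted p = 0.011). *Qdpr*, which regenerates tetrahydrobiopterin, passed the adjusted p but not the fold (0.42, adjusted p = 0.00052). *Tat*, the dedicated tyrosine aminotransferase of liver, and *Il4i1* had 0 reads in all libraries and were not tested.

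The cofactors of the propionate enzymes were in the lists of cobalamin and biotin. Of 12 tested genes of cobalamin handling, *Lrp2* was called higher. This gene encodes megalin, a large endocytic receptor, and had 109, 66.1 and 105 normalized counts in wild type against 159, 214 and 219 in mutants (1.08 on the log2 scale, SE 0.25, adjusted p = 0.0051). Its call was kept without wild type 3 or mutant 1. It was lost without wild type 1 (1.20, adjusted p = 0.011), wild type 2 (0.88, adjusted p = 0.026), mutant 2 (1.02, adjusted p = 0.024) or mutant 3 (0.998, adjusted p = 0.024), and with library size only (0.98, adjusted p = 0.012). *Cubn*, encoding the receptor of intrinsic factor with cobalamin, had a log2 fold change of 0.59 and an adjusted p of 0.018, and was called by DESeq2. *Mmab*, whose product makes adenosylcobalamin for MUT, had -0.20 (adjusted p = 0.35).

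Of 8 tested genes of biotin and of biotin-dependent carboxylases, edgeR called 0, and 2 (*Btd* and *Acacb*) had an unadjusted p under 0.05. DESeq2 called 1 of them lower, *Btd*, encoding the enzyme that frees biotin for reuse, with a log2 fold change of -0.63 in edgeR (adjusted p = 0.013). *Mccc1* and *Mccc2*, the subunits of the related carboxylase of leucine breakdown, had log2 fold changes of -0.16 (adjusted p = 0.39) and 0.02 (adjusted p = 0.87). *Hlcs*, which attaches biotin to PCCA, had -0.41 (adjusted p = 0.27).

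Branched-chain amino acid breakdown, a main source of propionyl-CoA, had all 22 genes tested, with 1 called higher and 1 lower. *Acat1*, a mitochondrial thiolase that releases propionyl-CoA in isoleucine breakdown and also handles acetoacetyl-CoA, rose from 6433, 6608 and 6569 to 9946, 10141 and 10159.6 normalized counts in the mutants (0.63, SE 0.06, adjusted p = 3.8e-06). *Bckdha*, a subunit of the branched-chain ketoacid dehydrogenase, fell from 943 to 595 normalized counts (-0.66, SE 0.12, adjusted p = 0.001). Both calls held in all 12 alternatives. *Bckdhb*, encoding the partner subunit of BCKDHA, and *Hadhb* passed the adjusted p but not the fold, at 0.40 and 0.38. Over the 12 alternatives their adjusted p reached 0.026 and 0.019. *Hadhb* was called in 1 of the 12, with the length correction (0.65, adjusted p = 0.00063).

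Of 12 tested genes that use the end products fumarate, acetoacetate, succinyl-CoA and related acyl groups, 2 were called, both lower. Of the 12, called or not, 8 had a log2 fold change above 0 and 4 below, with a median of 0.23. *Acss1*, a mitochondrial acetyl-CoA synthetase, had 357, 509 and 379.6 normalized counts in wild type against 95.1, 119 and 67.4 in mutants, far below. Its log2 fold change was -2.14 (SE 0.23, adjusted p = 6.2e-06), and the call held in all 12 alternatives. *Aacs*, which activates acetoacetate in the cytosol, fell from 1799 to 1142 normalized counts (-0.66, SE 0.13, adjusted p = 0.0014), and its call was lost without wild type 2 (-0.55, adjusted p = 0.012) and with the length correction (-0.45). *Sdhb*, *Suclg1* and *Sucla2*, named after their values were seen, passed the adjusted p with log2 fold changes from 0.34 to 0.36, below the fold set for a call. Over the 12 alternatives their adjusted p reached 0.013, 0.026 and 0.018. *Suclg1* was called in 1 of the 12, with the length correction (0.504, adjusted p = 0.00073).

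Breakdown of other amino acids, with 18 of 25 genes tested, had 1 gene called in each direction. *Gcat*, of threonine and glycine breakdown in mitochondria, rose from 6547 to 9445 normalized counts (0.53, SE 0.07, adjusted p = 3.3e-05), and its call was lost with library size only (0.42, below the fold). *Gldc*, the decarboxylase of the glycine cleavage system, fell from 230.3 to 104 (-1.15, SE 0.22, adjusted p = 0.0013), and its call was lost without wild type 1 (-1.07, adjusted p = 0.011).

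**Figure D5:**
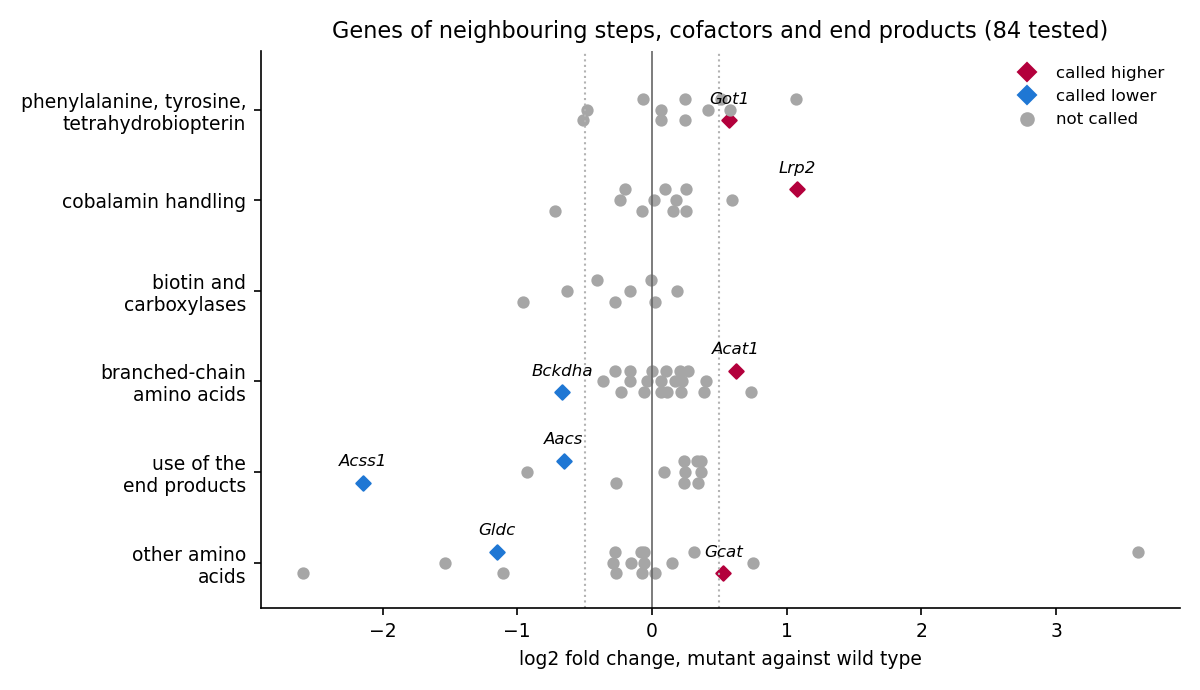
Log2 fold change of the 84 tested genes in 6 lists of neighbouring steps, cofactors and end products. Red diamonds were called higher, blue diamonds lower and grey circles not called, dotted lines mark 0.5 in either direction, and vertical offsets within a list have no meaning. The 8 called genes are spread over 5 of the 6 lists, 4 in each direction.

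Several members are best known from liver, so listed markers of hepatocytes were examined. The summed level of 12 hepatocyte markers was 217 to 266 CPM in the wild type group and 127 to 139 CPM in mutants. Of the 4 that were tested, 3 were called lower (*Fgb*, *Serpina1b*, *Serpina1d*, the serpins being near-identical copies). *Afp*, with a log2 fold change of -0.28, was not called. *Ahsg* and *Cyp2e1* had 0 reads in all libraries. *Alb* had 1, 6 and 0 reads in wild type against 0 in the mutant libraries. The sum was thus carried by *Serpina1b* and *Afp*, which embryonic gut epithelium can also express. Summed CPM in wild type and then mutant libraries were 5.97 to 6.48 and 8.75 to 9.65 for 8 pancreatic markers, 67.8 to 82.1 and 53.2 to 75.6 for 9 mesenchymal markers, and 0.146 to 0.668 and 0 to 0.583 for 8 blood markers. In the last list *Hbb-b1*, *Hbb-bh1*, *Hba-a1* and *Ptprc* were at 0. The pancreatic sum was carried by *Cela1*, and *Ptf1a*, *Prss1*, *Rbpjl*, *Ins1*, *Ins2* and *Nkx6-1* were at 0. Of the mesenchymal markers 4 were tested and 0 called, and they moved in both directions. *Vim* had a log2 fold change of -0.46, *Col3a1* -2.21, *Pdgfrb* -1.45 and *Acta2* 1.52. In mutant 1, 2 and 3 *Acta2* had 95.1, 171 and 488 normalized counts. The part of other cells in the differences of *Fah* and *Pccb* was not tested.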

How the data were processed

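PolyA RNA of 500 sorted cells per library was amplified for 15 PCR cycles, without molecular identifiers, so that the limits given for *Hgd* cover counting error only. The authors mapped reads with STAR 2.5.2b to mm9, counted uniquely mapping reads per gene of a UCSC gene model with featureCounts 1.5.1, and deposited raw read counts, 18216537 to 20397278 per library. Here, 12501 of 23366 genes passed filterByExpr and were compared with edgeR 4.0.16 in R 4.3.3 (TMM factors, quasi-likelihood test on genotype, Benjamini-Hochberg adjustment). The SE was derived from this test, as the size of the log2 fold change divided by the square root of the F statistic. The labels number the 3 libraries of a group without saying which embryos each holds. The authors used DESeq2 and an RPKM limit, in place of which a mean of 50 normalized counts was set. RPKM used TMM-scaled reads and the longest transcript of GENCODE vM1 (NCBIM37, the same build as mm9). Copies of member transcripts were searched in that genome with BLAST+ 2.17.0.

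The members and the lists were chosen with earlier results of these data known. Named are all 9 members, *Tcf7l1*, every called gene of a related list or its 2 most abundant tested genes where none was called, and the 3 genes nearest in pattern to *Fah* and *Pccb*. Other genes named were chosen after their values were seen or are listed markers. Alternatives were DESeq2 1.42.0, RLE factors, library size only, no filter, a replicate block, a loess correction for transcript length (span 0.5) and each library left out. The test was also tried on counts simulated from the means and dispersions of the same fit, with results not given here.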

Additional observations from a re-analysis of the deposited data

How the results depend on the processing

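The members' values under the 12 alternatives are a description, since the same comparison helped to choose them. The calls over all genes, 348 higher and 729 lower (32.3% higher), were 200 and 957 (17.3% higher) with library size only, where the median log2 fold change shifted by -0.11. They were 715 and 365 (66.2% higher) with the correction for transcript length, where it shifted by 0.13. In the main fit the Spearman correlation of log2 fold change with transcript length was -0.245, over the 11871 tested genes with a known length. With 1 library left out the calls ranged from 260 to 516 higher and from 405 to 867 lower. The most in either direction, 516 and 867, were called without wild type 3. Fewest genes were called lower when wild type 1 (405), wild type 2 (406) or mutant 2 (463) was left out. The 4 related genes called higher became 1 with library size only and 8 with the length correction, and ranged from 2 (without wild type 1) to 4 with 1 library left out. The related genes called lower ranged from 3 to 5 in the same fits. The cause of these shifts was not tested. Directions changed for values near 0. *Pcca* log2 fold change was -0.025 with library size only and ranged from -0.0042 to 0.18 with 1 library left out. *Mut* was at 0.12 with the length correction and ranged from -0.19 to 0.073, and *Mmaa* ranged from -0.12 to 0.26. *Mccc2* was at -0.082 with library size only and ranged from -0.043 to 0.076, and *Mccc1* was at 0.050 with the length correction. Libraries with the same number did not deviate together (correlations of 0.01, -0.04 and -0.02), not every library was closest to its own number, and the numbers were not taken to pair them. A replicate block gave 339 higher and 691 lower calls. *Hpd* and *Hgd* were too shallow to test.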
